A study of Mus musculus with 24 samples.

Results

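The genes described here are *Nfe2l2*, which encodes the transcription factor NRF2, *Keap1*, which encodes its inhibitor, and 7 genes of antioxidant enzymes that NRF2 is known to activate (*Nqo1*, *Hmox1*, *Gclc*, *Gclm*, *Txnrd1*, *Srxn1* and *Gsr*). The rule lists them by name and uses no measured value, and it was set with earlier results of these data known. They are 9 of the 55487 genes in the deposited gene table, and all 9 were among the 15401 genes that passed the filter on low counts. mRNA was sequenced from 2 lines of MEFs (mouse embryonic fibroblasts), a WT line and a *tfeb tfe3* DKO line in which the genes of TFEB and TFE3, transcription factors of lysosome and autophagy genes, are disrupted. Cells of both lines were given DMSO as vehicle, torin1, which inhibits the kinase MTOR, or MK-8722, which activates AMPK directly. The sample labels state neither the dose nor the time of treatment. The 24 libraries formed 6 groups of 4. Within a group the libraries differed in passage, and WT cells were taken at passages 7, 8, 9 and 11, DKO cells at passages 8, 9, 10 and 11. Each genotype was 1 line, so an effect of the genotype and a difference between the lines cannot be told apart. The libraries are cultures of a line and not separate animals, and the p-values therefore measure the spread between these cultures.

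Library totals over genes ran from 24668870 to 33332507 counts, and values are given as CPM (counts relative to the library's total) after TMM scaling. *Tfeb* was counted at 20.9 to 25.0 CPM in WT with DMSO and at 1.95 to 2.65 CPM in DKO with DMSO. On the log2 scale this was -3.35 (SE 0.10, adjusted p = 4.09e-18). *Tfe3* mRNA was not called lower in DKO, at 0.04 (SE 0.03, adjusted p = 0.279) on the same scale, so the gene count does not check that disruption, and DKO is used here as the labels give it. Of 10 fibroblast markers, 9 exceeded a mean of 1 CPM in each WT group and 8 in each DKO group, where *Thy1* was under it as well as *Lum*. None of 4 endothelial markers did in any group, *Cd68* alone did of 5 macrophage markers, and of 6 epithelial markers *Krt8* did in all groups and *Cdh1* in WT with torin1. The summed epithelial markers were at 2.83 to 4.61 CPM in WT with DMSO and at 5.68 to 7.49 CPM with torin1, and the sums of DKO reached 4.87 CPM at most with DMSO and 14.6 CPM with torin1. The summed macrophage markers were at 1.93 to 2.55 CPM in WT with DMSO and 10.9 to 14.7 CPM with MK-8722, and at 4.40 to 6.38 and 8.29 to 11.7 CPM in DKO. The part of these sums in the results was not tested.

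NRF2 is held in the cytoplasm and marked for degradation by KEAP1 in unstressed cells. Oxidants and electrophiles modify KEAP1, NRF2 then accumulates, pairs with small MAF proteins in the nucleus and binds antioxidant response elements near the genes of antioxidant and detoxifying enzymes. The level of NRF2 protein is set mostly by its degradation, so the mRNA of *Nfe2l2* is not a measure of its activity. In fibroblasts the pathway is known for supplying glutathione, reduced thioredoxin and NADPH, and it meets autophagy at SQSTM1 (also called p62), which binds KEAP1.

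Both genes of the regulators lie on GRCm38 as annotated by GENCODE, *Nfe2l2* (ENSMUSG00000015839, chr2:75675513-75704641, minus strand) and *Keap1* (ENSMUSG00000003308, chr9:21229730-21239361, minus strand). *Gclc* (ENSMUSG00000032350, chr9:77754535-77794485, plus strand) and *Gclm* (ENSMUSG00000028124, chr3:122245557-122270732, plus strand) encode the catalytic and the modifier subunit of glutamate-cysteine ligase, the first enzyme of glutathione synthesis. *Gsr* (ENSMUSG00000031584, chr8:33652523-33698163, plus strand) encodes glutathione reductase. *Txnrd1* (ENSMUSG00000020250, chr10:82833951-82897712, plus strand) encodes the cytosolic thioredoxin reductase, and *Srxn1* (ENSMUSG00000032802, chr2:152105516-152111376, plus strand) encodes sulfiredoxin, which restores overoxidised peroxiredoxins. *Nqo1* (ENSMUSG00000003849, chr8:107388225-107403206, minus strand) encodes a quinone reductase. *Hmox1* (ENSMUSG00000005413, chr8:75093621-75100589, plus strand) encodes heme oxygenase 1, which breaks heme down to biliverdin, iron and carbon monoxide. Reads are counted over exons of all the annotated transcripts of a gene, untranslated parts included. The estimated counts of 8 of the genes were within 0.01 of a whole number in all 24 libraries, and those of *Gclm* in 1 of 24, so some reads of *Gclm* were shared out among genes. The annotated pseudogene *Gm6061* lies within *Gclm* on the same strand. The values of *Gclm* are uncertain to that extent. *Keap1*, *Gclm* and *Txnrd1* also overlap annotated genes on the opposite strand.

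The promoter windows in RefSeq for GRCm38.p6, which span 250 bases before to 50 after a start site, cover 6 of the 9 genes with 8 start sites. The antioxidant response element core TGACNNNGC was searched on both strands, where N is any base. It occurred in 4 of the 8 windows, one each of *Nfe2l2*, *Gclm*, *Txnrd1* and *Srxn1*, and in 12.4% of all 32851 windows of the same length. The E-box CACGTG, which reads the same on both strands and occurred in 7.15% of all windows, and CACGTGAC, a longer form of it that TFEB is known to prefer and that occurred in 2.25%, were in none of the 8. These are matches of letters and not sites shown to be bound, and a window without a match says nothing of sequence further away. The 3 matches ahead of a start site are shown within 100 bases to let the letters around each match be read. Windows of *Keap1* and *Nqo1* held no match, and no test ties the element to a change in expression. The capitals mark the match, which begins at -240 in *Nfe2l2* (chr2:75704814-75704913, minus strand), at -134 in *Gclm* (chr3:122245378-122245477, plus strand) and at -92 at the second start site of *Txnrd1* (chr10:82859069-82859168, plus strand), each read 5′ to 3′ along the gene.
Nfe2l2: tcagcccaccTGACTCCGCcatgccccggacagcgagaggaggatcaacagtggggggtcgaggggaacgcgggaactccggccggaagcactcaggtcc
Gclm: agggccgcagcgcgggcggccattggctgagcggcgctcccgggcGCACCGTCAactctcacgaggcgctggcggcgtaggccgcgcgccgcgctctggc
Txnrd1: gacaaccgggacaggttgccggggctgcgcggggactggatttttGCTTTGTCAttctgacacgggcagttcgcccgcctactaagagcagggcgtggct
In *Gclm* and *Txnrd1* the element lies on the strand opposite to the gene. The match of *Srxn1*, GCTAGGTCA on the opposite strand, begins at 29 after the start and is not shown in context. The 100 bases shown for *Nfe2l2* overlap 1 annotated exon, and those shown for *Gclm* and *Txnrd1* overlap none.

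Salmon's split of reads among transcripts gave 1 main transcript for *Nfe2l2*, *Nqo1*, *Hmox1*, *Gclc*, *Srxn1* and *Gsr*. For these the group means of the main transcript's share moved by at most 0.895 percentage points in the 5 genes with more than 1 transcript. The reads of *Txnrd1* were split over several starts. Its transcripts with first base 82859179 and 82859207, the closest to the second start site above, took 30.1% and 35.8% on average, against 21.6% for the one that begins at 82860301 and 10.8% for the one at 82833951. The largest move of any share between group means was 6.25 percentage points for *Gclm*, 5.38 for *Keap1* and 3.57 for *Txnrd1*. Such shares are estimates where transcripts overlap, and they entered no test.

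Per transcript length, *Txnrd1* was the most abundant of the 9 and *Gclc* or *Nqo1* the least. With DMSO in WT, *Txnrd1* was at 213 ± 9.32 TPM (SD, n = 4), where TPM is salmon's length-corrected share of transcripts, *Gclm* at 138 ± 3.34 TPM, *Gsr* at 104 ± 6.26 TPM and *Nfe2l2* at 66.5 ± 2.32 TPM. *Hmox1* at 49.5 to 55.9 TPM and *Keap1* at 48.9 to 56.3 TPM overlapped, as did *Srxn1* at 39.7 to 45.9 TPM and *Nqo1* at 37.9 to 46.5 TPM. *Gclc* was the lowest at 24.7 to 31.7 TPM. With DMSO in DKO, *Nqo1* took the last place at 16.9 to 22.2 TPM, under *Gclc* at 34.4 to 42.3 TPM, and *Hmox1* at 83.6 to 104 TPM overlapped both *Gsr* above it and *Nfe2l2* below it. *Txnrd1*, *Gclm* and *Gsr* had the 3 highest means, in this order, in all 6 groups. The place of *Gclm* depends on salmon's split of its reads among transcripts. With DMSO in WT, transcripts of 762 and 1002 bases gave 47.7 and 40.5 TPM. Its transcript of 5589 bases took 29.1% of the reads and gave 6.98 TPM. In CPM, which is not corrected for length, *Gclm* was at 87.9 in that group, under *Nfe2l2* at 104 and *Keap1* at 98.7.

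**Figure D1:**
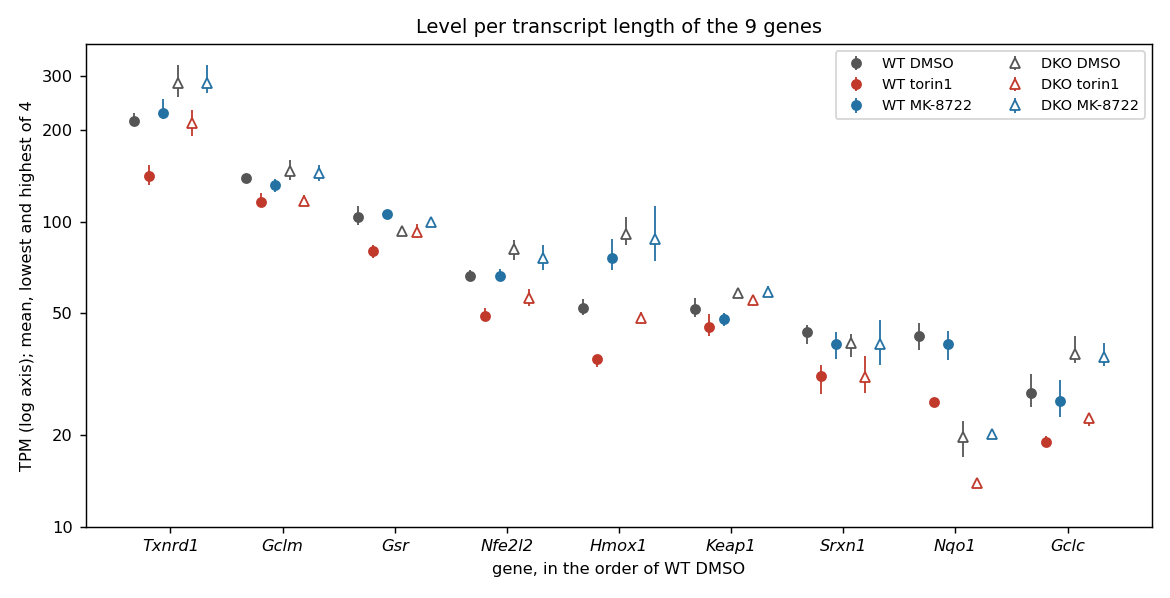
Level of the 9 genes in TPM on a log axis, with the mean of 4 libraries as the marker (circles, WT, and open triangles, DKO) and the lowest and highest library as the bar. *Txnrd1* lies highest, and *Nqo1* drops from 42.2 ± 4.23 TPM in WT to 19.8 ± 2.31 TPM in DKO with DMSO.

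The first comparison asked what inhibition of MTOR by torin1 did to these genes in WT MEFs. All 9 were downregulated, and for all 9 every torin1 library was below every DMSO library, as for 25.7% of all genes tested. Genes are called up- or downregulated at an adjusted p under 0.05 in edgeR's quasi-likelihood test, adjusted after Benjamini and Hochberg over the 15401 genes, with a fold change of at least 1.2. Of all genes tested, 20.5% were called lower and 26.6% higher in this comparison, and the median log2 fold change was -0.59 over the 9 genes and 0.05 over all genes. In bulk RNA, fewer cells of a type and less RNA per cell cannot be told apart.

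*Nqo1* showed the steepest fall in WT. It was counted at 42.7, 43.8, 37.0 and 35.9 CPM with DMSO at passages 7, 8, 9 and 11, and at 23.5, 22.8, 22.2 and 22.6 CPM with torin1 at the same passages. The torin1 libraries lay within 1 narrow band, well under the lowest DMSO library. This was a log2 fold change of -0.81 (SE 0.08, adjusted p = 5.16e-09), or 42.9% lower. *Txnrd1* followed, at 406, 371, 378 and 366 CPM with DMSO and 251, 233, 219.02 and 225 CPM with torin1 in the same order of passages. Passage 7 was the highest in both treatments, and the groups did not overlap. The log2 fold change of *Txnrd1* was -0.71 (SE 0.08, adjusted p = 2.73e-08).

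The 3 glutathione genes were lower as well. *Gclc* was at 61.1, 55.2, 53.9 and 47.8 CPM with DMSO and 36.9, 34.7, 31.9 and 33.5 CPM with torin1, with passage 7 again the highest of both. Its log2 fold change was -0.67 (SE 0.08, adjusted p = 4.3e-07). *Gclm*, the partner subunit, went from 87.9 ± 2.89 CPM (SD, n = 4) to 72.1 ± 0.547 CPM (SD, n = 4), a log2 fold change of -0.28 (SE 0.03, adjusted p = 2.11e-07). With a minimum of 10 counts in every library the call of *Gclm* was lost, at -0.26. The mRNA of the catalytic subunit was 37.2% lower and that of the modifier subunit 17.9% lower. *Gsr* was at 129, 139, 136 and 133 CPM with DMSO and 98.8, 101, 93.1 and 94.4 CPM with torin1. The groups lay far apart for their spread, and the log2 fold change was -0.47 (SE 0.04, adjusted p = 2.14e-10).

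*Hmox1* was at 48.5, 45.8, 46.0 and 51.9 CPM with DMSO and 31.5, 31.4, 28.8 and 30.9 CPM with torin1, without overlap, a log2 fold change of -0.65 (SE 0.10, adjusted p = 5.92e-06). *Srxn1* fell from 59.9 ± 2.66 CPM (SD, n = 4) to 39.9 ± 2.82 CPM (SD, n = 4), a log2 fold change of -0.59 (SE 0.06, adjusted p = 5.92e-09). The gene of NRF2 itself was also lower. *Nfe2l2* was at 109, 101.53, 99.8 and 105 CPM with DMSO and 73.3, 69.5, 69.7 and 76.2 CPM with torin1, with a log2 fold change of -0.52 (SE 0.05, adjusted p = 2.18e-08). *Keap1*, whose change was close in size to that of *Gclm*, went from 98.7 ± 7.00 CPM (SD, n = 4) to 81.3 ± 4.92 CPM (SD, n = 4), at -0.28 (SE 0.05, adjusted p = 1.39e-05). Its fold change was close to the threshold of 1.2, and the call was lost without WT DMSO replicate 2, of passage 11, at a log2 fold change of -0.23, and with a minimum of 10 counts in every library, at -0.25. Since the torin1 and DMSO libraries did not overlap, each of the 9 genes had to be lower in 4 of 4 passages. When cultures of 1 passage were set against each other, the log2 ratio was -0.94 to -0.67 for *Nqo1* and -0.30 to -0.24 for *Keap1*.

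**Figure D2:**
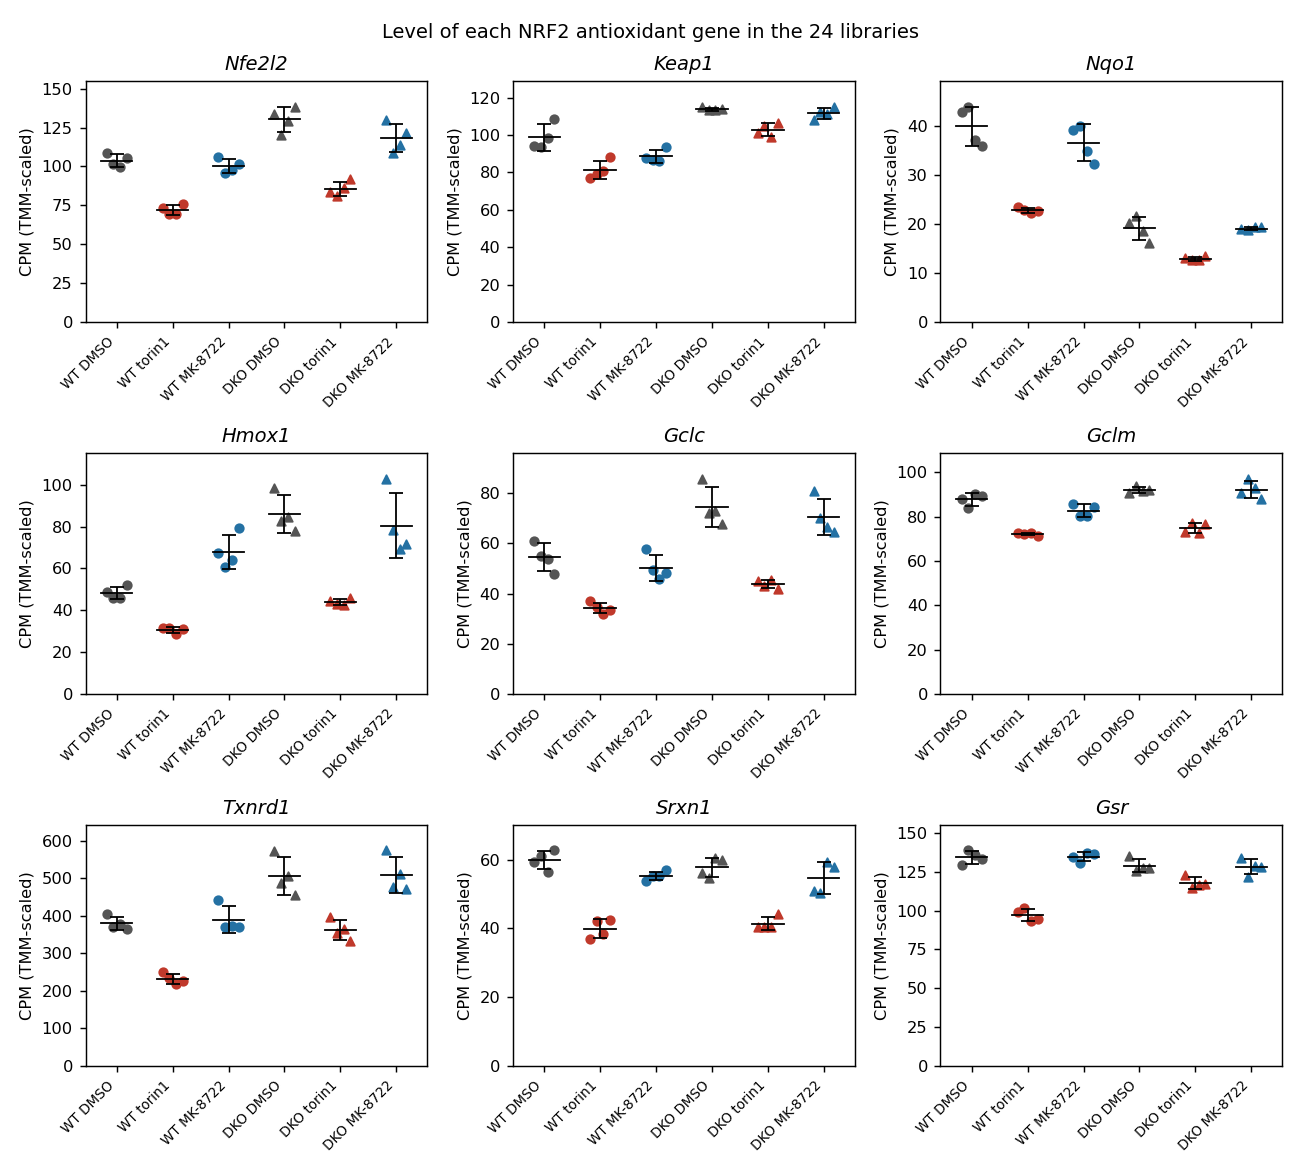
CPM of the 9 genes in the 24 libraries (y axis from 0), with a point per library ordered by passage within each group (circles, WT, and triangles, DKO), the mean as a line and the SD as bars. The torin1 libraries lie below the DMSO libraries of the same genotype in all 9 panels, and *Nqo1* is lower and *Gclc* and *Txnrd1* are higher in DKO than in WT within each treatment.

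The second comparison asked the same of the cells labelled DKO, where torin1 also lowered most of these genes. Of the 9 genes, 7 were called lower and none higher, where 20.2% of all genes were called lower and 23% higher. The median log2 fold change was -0.48 over the 9 genes and 0.02 over all. *Hmox1* and *Gclc* showed the steepest falls, and *Keap1* and *Gsr* passed the test with falls under the fold threshold. For all 9 genes every torin1 library was below every DMSO library, as for 26.1% of all genes tested.

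*Hmox1* was counted at 98.7, 82.8, 84.5 and 78.0 CPM with DMSO in DKO at passages 8, 9, 10 and 11, and at 44.5, 43.1, 42.4 and 45.8 CPM with torin1. The torin1 libraries were close together, whereas the DMSO library of passage 8 stood above the other 3. The log2 fold change was -0.97 (SE 0.10, adjusted p = 1.68e-08), or 48.9% lower. *Gclc* was at 85.8, 72.2, 72.8 and 67.6 CPM with DMSO, again highest at passage 8, and at 45.1, 43.2, 45.3 and 41.9 CPM with torin1, a log2 fold change of -0.77 (SE 0.08, adjusted p = 5.86e-08). *Nfe2l2* went from 130.3 ± 7.83 CPM (SD, n = 4) to 85.8 ± 4.55 CPM (SD, n = 4), a log2 fold change of -0.60 (SE 0.05, adjusted p = 2.6e-09).

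*Nqo1*, already low in DKO, went from 20.3, 21.6, 18.5 and 16.2 CPM to 12.97, 12.7, 12.6 and 13.4 CPM. Its passages differed with DMSO, where passage 11 was the lowest, and hardly differed with torin1. The log2 fold change was -0.57 (SE 0.08, adjusted p = 2.72e-06). *Txnrd1* was at 575, 488, 507 and 456 CPM with DMSO and 398, 356, 366 and 332 CPM with torin1, highest at passage 8 in both and lowest at passage 11. Its log2 fold change was -0.48 (SE 0.07, adjusted p = 8.2e-06). *Srxn1* had a log2 fold change of -0.48 (SE 0.06, adjusted p = 1.37e-07) and *Gclm* one of -0.30 (SE 0.03, adjusted p = 1.19e-07). *Keap1*, at -0.15 (adjusted p = 0.00899 in the edgeR test), and *Gsr*, at -0.13 (adjusted p = 0.0045 in the same test), were lower by less than 1.2-fold. With an offset for transcript length, *Gsr* was at -0.07 and no longer passed the test (adjusted p = 0.167 in the edgeR test).

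Whether the response to torin1 differed between the genotypes was tested as the log2 fold change in DKO minus that in WT. *Gsr* alone of the 9 genes was called, with a smaller fall in DKO, while 4.68% of all genes had a response called higher in DKO and 6.33% one called lower. *Gsr* fell from 134 to 96.9 CPM on average in WT and from 129 to 118 CPM in DKO. Within passages its log2 ratio was -0.55 to -0.39 in WT and -0.14 to -0.12 in DKO, without overlap. The difference was 0.34 (SE 0.05, adjusted p = 7.39e-05), and it was called in all alternative settings, from 0.32 to 0.40.

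The other 8 responses to torin1 were not shown to differ, and their intervals set limits on a difference. For 4 of them the interval left out 0, but the adjusted p missed the threshold. *Hmox1* was at -0.32 (95% interval -0.61 to -0.03, adjusted p = 0.138 in the edgeR test), and this was called when only the 4 groups compared were fitted or passage was a block, at -0.32 and -0.31. *Nqo1* was at 0.24 (95% interval 0.01 to 0.47), and it was called at 0.33 without WT passage 11. *Txnrd1* was at 0.23 (95% interval 0.01 to 0.45) and *Keap1* at 0.13 (95% interval 0.00 to 0.27). Neither was called in any of 28 alternatives, though each passed the adjusted p in an alternative with a fold change under the threshold. For *Nfe2l2*, *Gclc*, *Gclm* and *Srxn1* the 95% intervals held 0 and lay between -0.34 and 0.27.

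With MK-8722 most of these genes were not called, as was the case for most of all genes tested. In WT, *Hmox1* was the only one called, and it was higher, while 10.3% of all genes were called higher and 5.87% lower. The median log2 fold change was -0.09 over the 9 genes and -0.01 over all. *Hmox1* was at 48.5, 45.8, 46.0 and 51.9 CPM with DMSO and 67.6, 60.8, 64.2 and 79.2 CPM with MK-8722 at passages 7, 8, 9 and 11. All MK-8722 libraries were above all DMSO libraries, with passage 11 the highest of both groups. The log2 fold change of *Hmox1* was 0.50 (SE 0.10, adjusted p = 0.000413), or 41.3% higher, and its log2 ratio within passages was 0.41 to 0.61.

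Torin1 and MK-8722 thus moved *Hmox1* of WT cells in opposite directions, each against the same DMSO libraries. *Keap1* passed the test at -0.16 (SE 0.05, adjusted p = 0.0114), under the fold threshold. *Gclm*, at -0.09, and *Srxn1*, at -0.12, had unadjusted p under 0.05 only. The 95% intervals of *Nfe2l2*, *Nqo1*, *Gclc*, *Txnrd1* and *Gsr* held 0 and lay between -0.29 and 0.19.

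In DKO, none of the 9 genes was called with MK-8722 by edgeR's test, and 0 were called by DESeq2, while 5.47% of all genes were called higher and 3.21% lower. At an unadjusted p under 0.05, 1 of the 9 was lower, which was *Nfe2l2* at -0.14 (SE 0.05, adjusted p = 0.0761) and lower in 4 of 4 passages. *Hmox1* was at 98.7, 82.8, 84.5 and 78.0 CPM with DMSO and 103, 78.2, 69.3 and 71.8 CPM with MK-8722 at passages 8, 9, 10 and 11. The groups overlapped, and passage 8 was the highest of both. The 95% interval of the log2 fold change was -0.30 to 0.11. Those of *Keap1*, *Nqo1*, *Gclc*, *Gclm*, *Txnrd1*, *Srxn1* and *Gsr* held 0 and lay between -0.25 and 0.16. The library at passage 10 with MK-8722 had the lowest RNA integrity number of the series, 7.9, against 9.7 to 9.9 in the others, and the lowest *Hmox1* of its group.

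The response of *Hmox1* to MK-8722 was lower in DKO than in WT, with a difference of -0.59 (SE 0.14, adjusted p = 0.00826). It was the only one of the 9 genes called in this contrast, in which 1.42% of all genes had a response called higher in DKO and 4.08% one called lower. The summed macrophage markers given above, of which *Cd68* alone exceeded a mean of 1 CPM, were higher with MK-8722 in both genotypes too. Their part in this result was not tested. Within passages the log2 ratio of *Hmox1* was 0.41 to 0.61 in WT and -0.29 to 0.06 in DKO, without overlap. The call held in all alternative settings, from -0.73 to -0.50. With DMSO, *Hmox1* was already at 86.0 ± 8.90 CPM (SD, n = 4) in DKO, against 68.0 ± 8.00 CPM (SD, n = 4) in WT with MK-8722, and those libraries of WT and DKO overlapped at 78.0 and 79.2 CPM. For the other 8 genes the 95% intervals of the difference held 0 and lay between -0.25 and 0.35.

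**Figure D3:**
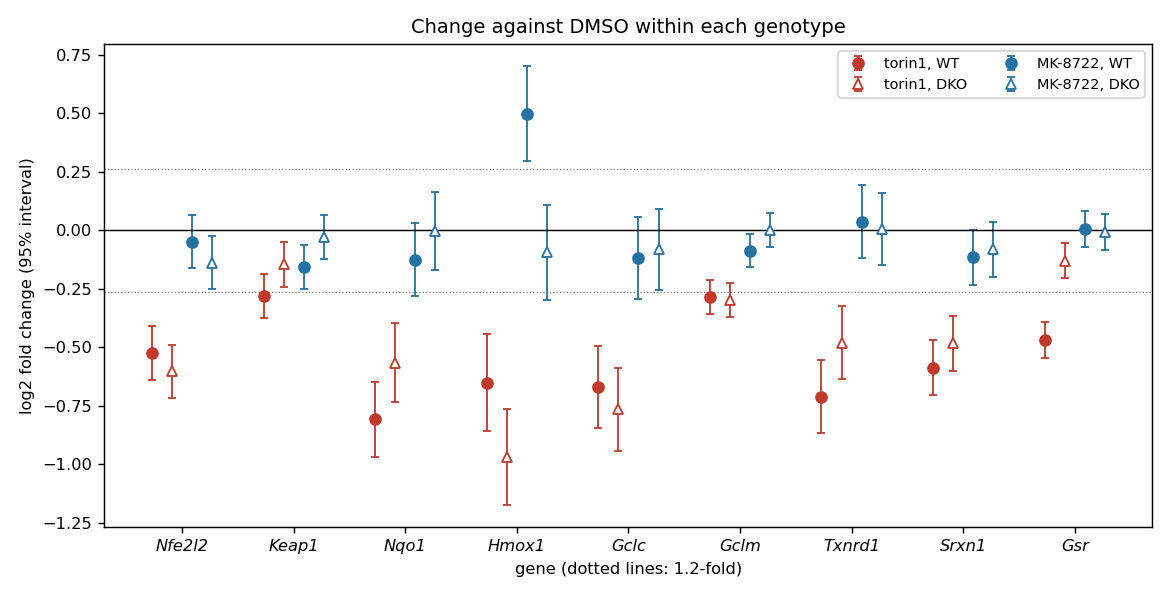
Log2 fold change of each drug against DMSO for the 9 genes with its 95% interval (filled circles, WT, and open triangles, DKO), where both drugs of a genotype share the DMSO libraries. Torin1 lies below 0 for all 9 genes in both genotypes, and MK-8722 lies clear of 0 on the upper side for *Hmox1* in WT alone, at 0.50.

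With vehicle alone the genotypes differed in some of these genes, in both directions, as they did in many of all genes tested. With DMSO, 4 of the 9 genes were called higher in DKO than in WT and 1 lower, while 23.5% of all genes were called higher and 24.6% lower. *Nqo1*, the quinone reductase, was the one lower, and *Hmox1*, *Gclc*, *Txnrd1* and *Nfe2l2* were higher. The lines differ in all that distinguishes the cultures, and this cannot be told apart from the loss of TFEB and TFE3.

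*Nqo1* was counted at 35.9 to 43.8 CPM in WT and 16.2 to 21.6 CPM in DKO with DMSO, without overlap. The log2 fold change was -1.06 (SE 0.08, adjusted p = 5.92e-11). At the 3 passages both lines share, 8, 9 and 11, the difference with DMSO was -1.15 to -0.78 on the log2 scale. It was called under torin1 as well, at -0.82 (SE 0.08, adjusted p = 5.87e-09), and under MK-8722, at -0.94 (SE 0.08, adjusted p = 4.53e-10). All DKO libraries with DMSO were even under the WT libraries with torin1, which lay at 22.2 to 23.5 CPM.

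*Hmox1* was higher in DKO with DMSO by 0.84 (SE 0.10, adjusted p = 1.13e-07), and its DKO libraries, from 78.0 to 98.7 CPM, lay above the WT libraries. The difference was 0.52 (SE 0.10, adjusted p = 8.11e-05) under torin1. Under MK-8722 the groups overlapped, and the log2 fold change of 0.24 (adjusted p = 0.0331 in the edgeR test) was under the fold threshold. That last value was past the threshold without WT passage 11, at 0.31, with the passage as a block, at 0.27, and without WT MK-8722 replicate 2 or DKO MK-8722 replicate 2 or 3, at 0.29 to 0.31. It was 0.10 without DKO MK-8722 replicate 4, of passage 8 (adjusted p = 0.263 in the edgeR test), and 0.11 without DKO passage 8 (adjusted p = 0.217 in the same test).

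*Gclc* and *Txnrd1* were called higher in DKO under every treatment. *Gclc* differed by 0.45 (SE 0.08, adjusted p = 6.01e-05) with DMSO, 0.36 under torin1 and 0.49 under MK-8722. *Txnrd1* differed by 0.41 (SE 0.07, adjusted p = 4.49e-05) with DMSO, 0.65 under torin1 and 0.38 under MK-8722. As their WT and DKO libraries did not overlap, both had to be higher in DKO in 3 of 3 shared passages with each treatment. The same held for *Gclm*, but it was not called. Its 95% intervals with DMSO and under torin1 lay between -0.02 and 0.14, and under MK-8722 it was higher by 0.16, past the test but under the fold threshold.

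Among the regulators, *Nfe2l2* was higher in DKO with DMSO, at 130.3 ± 7.83 CPM (SD, n = 4) against 104 ± 3.92 CPM (SD, n = 4), by 0.33 (SE 0.05, adjusted p = 1.49e-05). It was higher by 0.25 under torin1 and 0.24 under MK-8722, past the test but under the fold threshold. The value under torin1 was called with passage as a block, at 0.27 (adjusted p = 1.06e-05 in the edgeR test), with no filter, at 0.27, and, at 0.27 to 0.29, without WT passage 11, without DKO passage 8, without WT torin1 replicate 1 or 3 or without DKO torin1 replicate 1 or 4, and the value under MK-8722, at 0.28, without DKO MK-8722 replicate 1. *Keap1* was at 0.21 with DMSO, under the fold threshold, and called at 0.34 (SE 0.05, adjusted p = 7.93e-07) under torin1 and 0.33 (SE 0.05, adjusted p = 1.23e-06) under MK-8722. *Srxn1* was called under no treatment, with 95% intervals that lay between -0.17 and 0.17. The intervals of *Gsr* with DMSO and under MK-8722 held 0 and lay between -0.15 and 0.02.

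Under torin1, 5 of the 9 genes were called higher in DKO (*Txnrd1*, *Hmox1*, *Gclc*, *Keap1* and *Gsr*) and *Nqo1* lower, while 24% of all genes were called higher and 27.8% lower. *Gsr* was higher by 0.28 (SE 0.04, adjusted p = 4.72e-07), a fold change just above the threshold, and the call was lost without WT torin1 replicate 2, of passage 9, at 0.26, and with a minimum of 10 counts in every library, at 0.25. Under MK-8722, 3 of the 9 were called higher (*Gclc*, *Txnrd1* and *Keap1*) and *Nqo1* lower, while 23.3% of all genes were called higher and 25.4% lower.

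**Figure D4:**
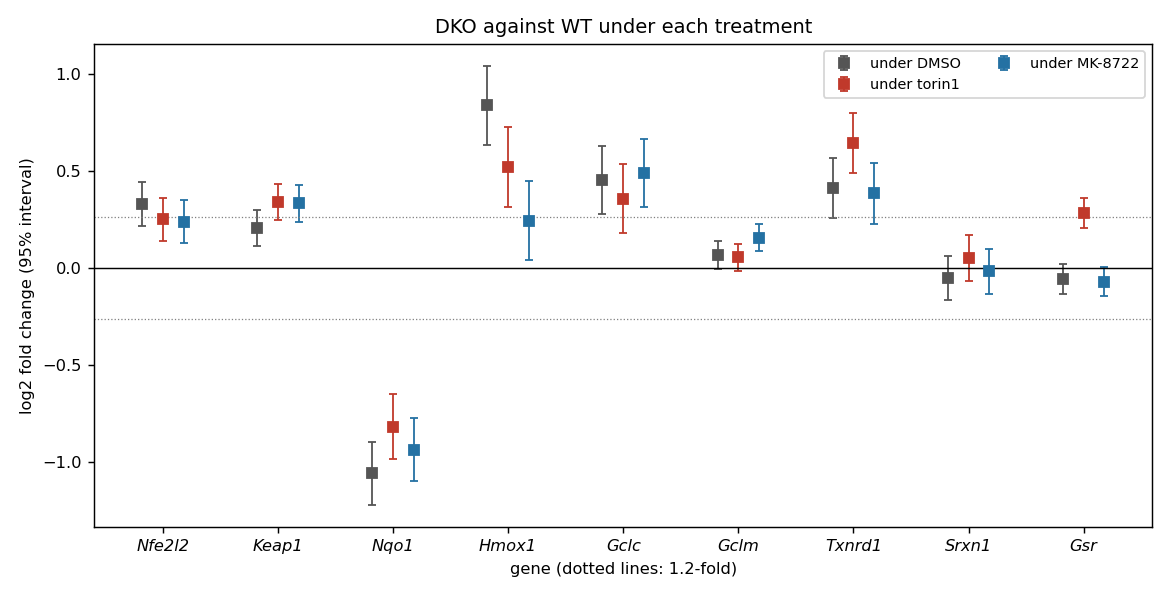
Log2 fold change of DKO against WT for the 9 genes under each treatment, with its 95% interval and dotted lines at a fold change of 1.2. *Nqo1* lies at -1.06, -0.82 and -0.94, below 0 under all 3 treatments, and *Gclc* and *Txnrd1* lie above the upper dotted line under all 3.

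Other genes of NRF2 biology were taken from 7 lists with 103 genes, of which 93 were tested. In WT with torin1, 17 of them were called higher and 23 lower, where 26.6% and 20.5% of all genes were, with a median log2 fold change of -0.05 against 0.05 over all genes. In DKO with torin1, 12 were higher and 27 lower, where 23% and 20.2% of all genes were, with medians of -0.07 and 0.02. With MK-8722, 6 were higher and 6 lower in WT, where 10.3% and 5.87% of all genes were, and 3 and 3 in DKO, where 5.47% and 3.21% were. With DMSO, 21 of the 93 were called higher in DKO and 33 lower, where the shares over all genes were 23.5% and 24.6%.

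Of 10 thioredoxin and peroxiredoxin genes, 5 were called lower with torin1 in WT and 4 in DKO, where 20.5% and 20.2% of all genes were. None was called higher, where 26.6% of all genes were in WT and 23% in DKO. The medians were -0.35 and -0.14, and the others were not called. *Prdx1*, a peroxiredoxin that removes hydrogen peroxide in the cytosol, fell on the log2 scale, at -0.70 (SE 0.04, adjusted p = 2.17e-12) in WT and -0.78 (SE 0.04, adjusted p = 4.85e-13) in DKO. *Txn2*, the mitochondrial thioredoxin, was at -0.86 in WT and -0.84 in DKO. *Prdx6* was called in WT and not in DKO, at -0.67 against -0.24 in DKO, and its response was called higher in DKO by 0.43 (SE 0.07, adjusted p = 0.000121). *Prdx4*, a peroxiredoxin of the endoplasmic reticulum, was called under neither drug, and it was higher in DKO with DMSO by 0.61.

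Of 9 genes of NADPH supply, 4 were called lower with torin1 in WT and 5 in DKO, and none was called higher, against the same shares of all genes. *G6pdx*, the first enzyme of the pentose phosphate pathway, had a log2 fold change of -0.89 (SE 0.05, adjusted p = 5.27e-13) in WT and -0.77 (SE 0.05, adjusted p = 6.02e-12) in DKO. *Taldo1*, transaldolase of the same pathway, was at -0.50 and -0.45, and *Me1*, the cytosolic malic enzyme, at -0.39 and -0.28. *Idh1*, the cytosolic isocitrate dehydrogenase, was called in DKO alone at -0.69, against -0.10 in WT, and this difference between genotypes was not called. *G6pdx* and *Taldo1* were also higher in DKO than in WT under all 3 treatments, as *Gclc* and *Txnrd1* were.

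Among 4 genes of superoxide and peroxide removal, *Sod2* of the mitochondria was lower with torin1, at -0.55 in WT and -0.67 in DKO. *Cat*, which encodes catalase, was higher in WT at 0.38, and *Sod1* was called in no comparison. The secreted *Sod3* was called lower with MK-8722 in WT, at -0.74, with overlapping libraries.

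Among 19 tested quinone, aldehyde and xenobiotic genes, 2 were higher and 4 lower with torin1 in WT, and 1 and 5 in DKO. Of all genes, 26.6% were higher and 20.5% lower in WT, and 23% and 20.2% in DKO. *Nqo2*, a relative of *Nqo1* that uses another electron donor, was lower with torin1 in both genotypes, at -0.58 and -0.98, and with MK-8722, at -0.30 and -0.27. Like *Nqo1*, it was lower in DKO with DMSO, at -0.39 (SE 0.06, adjusted p = 4.93e-06). *Cbr1*, a carbonyl reductase, was at -0.77 and *Akr1b10*, an aldo-keto reductase, at -0.80 in the same contrast, and 10 of the 19 were lower and 4 higher in DKO, against 24.6% and 23.5% of all genes. *Osgin1* was lower with torin1 at -0.66 in WT and -0.58 in DKO, and higher in DKO with DMSO at 0.28.

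Among 25 tested glutathione genes, 4 were lower with MK-8722 in WT and none higher, and 5 were higher and 4 lower with torin1 in WT, and 7 and 5 in DKO. Over all genes, 10.3% were higher and 5.87% lower with MK-8722 in WT. Under torin1, 26.6% were higher and 20.5% lower in WT and 23% and 20.2% in DKO. With torin1 *Glrx*, which encodes glutaredoxin, moved in opposite directions, at -0.41 in WT and 0.42 in DKO, and the difference was called at 0.83 (SE 0.13, adjusted p = 0.000119). The transferase genes *Gstz1*, at 0.70 and 0.78, and *Gstt2*, at 0.94 and 1.2, were higher with torin1 in both genotypes. *Gstt2* was lower in DKO with DMSO, at -2.79, and *Gstt1* higher by 1.2. The values of *Gstt2* rest on few reads. Its mean was 1.85 CPM with DMSO and 3.55 CPM with torin1 in WT, and 0.271 and 0.611 CPM in DKO.

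Of 16 partners and regulators of NRF2 with MK-8722, 4 were called higher in WT and 2 in DKO, none was lower, and 3 had a response called lower in DKO. Over all genes, 10.3% were called higher and 5.87% lower in WT, 5.47% and 3.21% in DKO, and 4.08% had a response called lower. *Mafg* and *Maff* encode small MAF proteins, with which NRF2 and its competitors BACH1 and BACH2 bind DNA. *Mafg* was at 76.6 ± 5.98 CPM (SD, n = 4) with DMSO and 149 ± 8.47 CPM (SD, n = 4) with MK-8722 in WT, a log2 fold change of 0.96 (SE 0.07, adjusted p = 5.06e-10), against 0.35 in DKO. *Maff* was at 1.03 in WT and 0.34 in DKO. The difference was called for both, at -0.61 (SE 0.10, adjusted p = 0.000253) for *Mafg* and -0.68 (SE 0.13, adjusted p = 0.00133) for *Maff*.

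*Sqstm1* was higher in WT with MK-8722, at 0.87 (SE 0.11, adjusted p = 2.88e-06), and with torin1, at 0.99 (SE 0.11, adjusted p = 8.4e-08). In DKO neither drug changed it by a called amount, at 0.22 and 0.14, and both responses were called lower in DKO, at -0.65 and -0.85. As with *Hmox1*, its level with DMSO was higher in DKO, at 583 ± 104 CPM (SD, n = 4) against 296 ± 27.4 CPM (SD, n = 4). *Bach2* rose with torin1 in both genotypes, by 0.56 in WT and 1.65 in DKO, from 8.40 and 1.40 CPM with DMSO. Of the 16 partners and regulators, 6 were called higher and 3 lower with torin1 in WT, and 4 and 3 in DKO. The shares over all genes were 26.6% higher and 20.5% lower in WT, and 23% and 20.2% in DKO.

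Among 10 genes of heme and iron handling, 1 was higher with MK-8722 in WT, against 10.3% of all genes, which was *Ftl1*, the ferritin light chain that stores iron, at 0.26 (SE 0.04, adjusted p = 1.37e-05). In DKO it was at -0.07, and the response was called lower in DKO, at -0.34 (SE 0.05, adjusted p = 0.000209), as for *Hmox1*. With torin1, 3 of the 10 were called higher and 2 lower in WT, and 0 higher and 4 lower in DKO. The shares over all genes were 26.6% higher and 20.5% lower in WT, and 23% and 20.2% in DKO. *Fth1*, the ferritin heavy chain, was lower with torin1, at -0.28 in WT and -0.36 in DKO. *Blvrb*, a biliverdin reductase, was lower in DKO with DMSO, at -1.04. *Slc48a1*, a heme transporter, was lower with torin1 in DKO alone, at -0.32 against -0.02, and this difference was called at -0.30.

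**Figure D5:**
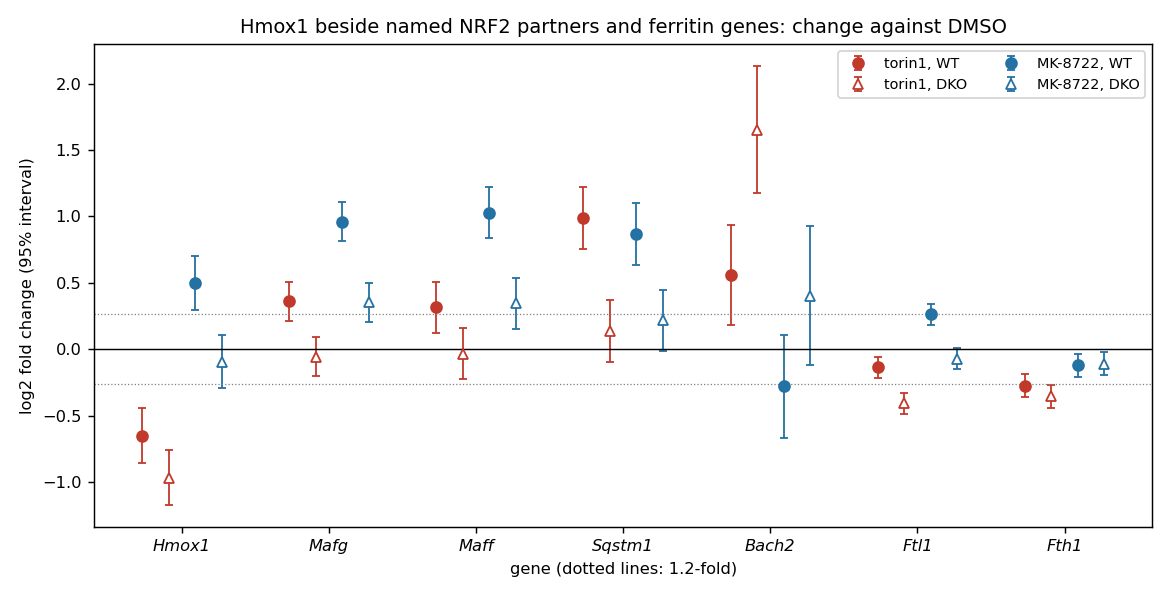
Log2 fold change against DMSO with its 95% interval for *Hmox1* beside genes of NRF2 partners and of ferritin (filled circles, WT, and open triangles, DKO). With MK-8722, the WT value lies above the DKO value for *Hmox1*, *Mafg*, *Maff*, *Sqstm1* and *Ftl1*, whose differences were called, while torin1 lowers *Hmox1* and raises *Sqstm1* in WT.

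Of the 9 genes, all but *Nqo1* correlated positively with each other over the 24 libraries. Correlations of log2 CPM are given as descriptions, since the libraries share groups and lines. *Gclc* correlated with *Txnrd1* at a Pearson r of 0.96 and with *Nfe2l2* at 0.95, and *Nfe2l2* with *Hmox1* at 0.92. The lowest pair without *Nqo1* was *Keap1* with *Srxn1*, at 0.48. *Nqo1* was at 0.06 with *Nfe2l2* and -0.43 with *Keap1*, and its highest value was 0.52 with *Srxn1*. After the mean of each group was taken off, *Gclc* and *Txnrd1* still correlated at 0.87, and the next highest pairs were at 0.50. In both genes passage 7 was the highest in every WT group, and passage 8 was the highest in DKO with DMSO and with MK-8722.

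The gene most like a member over the 24 libraries, among all genes tested, was *Ppp1r15b* for *Nfe2l2* (Pearson r = 0.976), *Limk1* for *Nqo1* (0.988) and *Ndst1* for *Hmox1* (0.966). For the glutathione genes it was *Sltm* for *Gclc* (0.987), *Dynll1* for *Gclm* (0.963) and *Mtpn* for *Gsr* (0.965). For the thioredoxin genes it was *Aen* for *Txnrd1* (0.979) and *Psma2* for *Srxn1* (0.969). None of these genes was itself a member.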

How the data were processed

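mRNA of 24 libraries was sequenced with the Universal Plus mRNA-seq protocol. The authors aligned reads to GRCm38 with STAR and quantified them with salmon (nf-core/rnaseq), with molecular identifiers considered, and deposited estimated counts per gene, and estimated counts and TPM per transcript. The estimated counts were rounded to whole numbers and filtered with filterByExpr (minimum count 10), and library sizes were scaled with TMM (factors 0.950 to 1.08). All libraries entered 1 fit of group means in edgeR 4.0.16 (quasi-likelihood method in its edgeR 3 form, R 4.3.3), with 18 residual degrees of freedom. Standard errors (SE) were derived from the F statistic and the log2 fold change. Alternatives included DESeq2 1.42.0. TPM deposited by the authors were summed per gene and not tested. The authors also removed a batch with limma, but the sources used here do not say which, and none was removed. Coordinates come from GENCODE M21. No pair of replicates agreed within sampling noise (chi-square per degree of freedom 3.86 to 39.6 over 36 pairs). The script was tested on simulated data. P-values were adjusted after Benjamini and Hochberg. Genes named besides the 9 were, per list, at most 4 with the most calls (over the 9 contrasts, ties by the largest change, mean of at least 1 CPM), and the gene most correlated with each member, which for *Keap1* is not reported here. The genes and lists were chosen with earlier results of these data known.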

Additional observations from a re-analysis of the deposited data

Results flagged for a closer look

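Of 54 groups of 4 libraries examined, 1 for each gene and group, 2 held a library that stood far from the other 3, where chance flags about 1 in 20. *Txnrd1* in WT with MK-8722 was at 443 CPM in replicate 4, of passage 7, and at 371 to 374 CPM in the other libraries. *Srxn1* in DKO with torin1 was at 44.1 CPM in replicate 2, of passage 11, and at 40.3 to 40.6 CPM in the others.

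The effect of a drug differed between the genotypes by a test of the difference for 2 of the 9 genes. *Gsr* had a response to torin1 that was 0.34 higher in DKO than in WT on the log2 scale (adjusted p = 7.39e-05 in edgeR's quasi-likelihood test). *Hmox1* had a response to MK-8722 that was lower in DKO, with a difference of -0.59 (adjusted p = 0.00826 in the same test).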

How the results depend on the processing

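The number of the 9 genes called was recomputed under the alternatives that bear on each comparison, 19 for a drug within a genotype, 20 for DKO against WT and 28 for the difference of responses. It ranged from 7 to 9 for torin1 in WT and in DKO, from 1 to 2 for MK-8722 in WT, stayed at 0 for MK-8722 in DKO, and ranged from 5 to 6, 5 to 7 and 4 to 7 for DKO against WT under DMSO, torin1 and MK-8722. With the false discovery rate alone as the threshold, 2 genes were called for MK-8722 in WT and 7 for DKO against WT under MK-8722. The response to torin1 was called for 2 genes when only the groups compared were fitted, with passage as a block and without WT passage 11. Over all genes, that rate alone called 2432 genes higher and 2343 lower for MK-8722 in WT against 1583 and 904, 1619 and 1579 in DKO against 843 and 495, and 1146 responses to torin1 higher in DKO against 721. Passage as a block called 486 responses to MK-8722 higher in DKO against 218, and 1099 responses to torin1 were higher without WT torin1 replicate 3 against 721.

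Of 1005 recomputed values of 49 results with an unadjusted p under 0.05, 975 kept their side of the threshold, 5 lost the call, 25 gained it and 0 turned their direction. The 5 were *Keap1* and *Gclm* with torin1 in WT and *Gsr* of DKO against WT under torin1 with a minimum of 10 counts in every library, at -0.25, -0.26 and 0.25, and 2 with a single library left out, *Keap1* at -0.23 and *Gsr* at 0.26. The 32 values with an unadjusted p of 0.05 or more turned their sign in 58 of 723 cases, all of values of at most 0.10, and were never called. Replicate numbers do not match passages, and the deviations of same-numbered libraries of a genotype correlated from -0.41 to 0.66, so the number was not taken as a pairing. Those of libraries of the same genotype and passage correlated from 0.02 to 0.66 (median 0.16), and passage was not in the main fit. The replicate block left 9, 1, 7, 0, 5, 6, 4, 1 and 1 genes called in the 9 comparisons, the same numbers as without it. The biological coefficient of variation of 10.7% limits what 4 libraries per group can show.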
